A study of Mus musculus with 10 samples.

Results

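The paraoxonases are a family of 3 related genes, Pon1, Pon2 and Pon3, and all 3 were among the 53465 genes counted in this series. They were found by matching Ensembl identifiers to GRCm38 gene symbols. The family was chosen by its IL-33 over control values, above all by the low Pon1 level in IL-33 lungs, so the members' values in that contrast are given as a description, and no test of them is used as support. The series holds RNA of 10 lung tissue samples from BALB/c mice, 5 in each group. Mice of the IL-33 group received 1 µg of the cytokine IL-33 in 35 µL through the nose once daily on 5 days, and lung tissue was collected 24 hours later. Mice of the control group are described as untreated, and neither the age of the mice nor any vehicle for the controls is stated in the labels. The labels name no transgene, deletion or other agent in either group. In bulk lung tissue, fewer cells of a type and less RNA per cell cannot be told apart. The libraries held 7805175 to 13178798 reads counted in genes in the IL-33 group and 8935159 to 13767118 in the control group. Records that did not map to 1 place made up 19.97% to 22.8% in IL-33 libraries and 15.0% to 16.2% in control libraries, and records in no annotated gene 11.4% to 13.7% in IL-33 libraries and 10.4% to 11.1% in control libraries. The part of these differences in the results was not tested.

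Paraoxonases are calcium-dependent enzymes that open lactone rings, and some also split esters such as paraoxon, the organophosphate that gave the family its name. The Pon1 protein is made mainly by the liver and circulates on high-density lipoprotein (HDL), where it is known for slowing the oxidation of lipids. The Pon2 protein stays inside cells of many tissues and breaks down a lactone that Pseudomonas bacteria use as a signal. The Pon3 protein is also a lactonase and is found inside cells. Lung is exposed to inhaled oxidants, and also to lactones and organophosphates, the substrates for which the family is known.

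The 3 genes lie side by side on the minus strand of chromosome 6 in GRCm38, within 130.4 kb. Pon1 (ENSMUSG00000002588) spans chr6:5168090-5193946, Pon3 (ENSMUSG00000029759) chr6:5220852-5256286 and Pon2 (ENSMUSG00000032667) chr6:5264147-5298455. Each main transcript has 9 coding exons, and the coding sequences are 1065 bases for Pon1 and 1062 bases each for Pon2 and Pon3. Aligned end to end, the coding bases were 67.0% identical between Pon1 and Pon2, 63.2% between Pon1 and Pon3 and 66.3% between Pon2 and Pon3. The longest exact match between any 2 of them, shown because it bounds how far a read can fit 2 members, ran from base 610 of the Pon1 and base 607 of the Pon2 coding sequence:
Pon1 and Pon2: aatgttgtttactacagtccaga
At 23 bases it is shorter than the windows of 50, 75 and 100 bases searched for shared sequence. None of the windows of Pon1 or Pon3 transcripts, at 0%, occurred in transcripts of another gene. For Pon2, 11.2% of 50-base windows did, in 522 other genes, and 9.18% of 75-base windows, in Fbxl14 and in Gm44424, a gene model inside Pon2 on the opposite strand that held 0 reads in the 5 IL-33 libraries and 4 in the 5 control libraries.

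The promoters are shown because the members differ in level and in their response although they are neighbours. The 250 bases before the start that RefSeq's promoter table (GRCm38.p6) gives each gene, on the minus strand, lie at chr6:5193947-5194196 for Pon1, chr6:5298341-5298590 for Pon2 and chr6:5256234-5256483 for Pon3. Capitals mark matches, on either strand, to GGGCGG (GC box), GCGTG (core of the xenobiotic response element), CCAAT and TGANTCA (AP-1):
Pon1: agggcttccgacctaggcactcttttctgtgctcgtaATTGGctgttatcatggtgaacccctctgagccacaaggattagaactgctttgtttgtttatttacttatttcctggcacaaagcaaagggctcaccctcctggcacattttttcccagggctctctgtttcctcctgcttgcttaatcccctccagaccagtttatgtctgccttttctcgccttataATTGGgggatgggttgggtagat
Pon2: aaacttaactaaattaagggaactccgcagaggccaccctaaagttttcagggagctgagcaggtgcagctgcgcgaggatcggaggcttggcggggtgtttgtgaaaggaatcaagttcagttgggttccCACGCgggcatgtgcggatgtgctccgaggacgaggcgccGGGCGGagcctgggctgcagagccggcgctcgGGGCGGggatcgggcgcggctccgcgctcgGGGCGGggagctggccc
Pon3: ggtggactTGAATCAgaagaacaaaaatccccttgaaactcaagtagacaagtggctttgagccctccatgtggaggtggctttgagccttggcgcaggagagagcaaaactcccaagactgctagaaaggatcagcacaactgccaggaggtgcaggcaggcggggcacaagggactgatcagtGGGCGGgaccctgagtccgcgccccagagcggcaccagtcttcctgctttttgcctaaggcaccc

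The Pon1 promoter window held 3 CpG and 47.6% G and C, the Pon3 window 6 CpG and 56.8%, and the Pon2 window 24 CpG and 65.6%. Over 32851 RefSeq promoters of the same length the medians were 6 CpG and 52.4%, so Pon2 lay on the CpG-rich side and Pon1 on the CpG-poor side. The GC box occurred 3 times in Pon2, beginning 79, 47 and 17 bases before the start, once in Pon3 and not in Pon1, and 32.7% of all promoters hold it. CCAAT occurred only in Pon1 of the 3, at 213 and 23 bases before the start, against 33.8% of all promoters. GCGTG was found only in Pon2 of the 3 (28.2% of all promoters) and TGANTCA only in Pon3 (6.75%). TATAAA (12.4% of all promoters) and the STAT6 pattern, TTC and GAA with 4 bases between them (5.85%), were in none of the 3 windows. The loose NF-kB pattern, GGG and CC with 5 bases between them, present in 45.8% of promoters, was found in all 3, overlapping GC boxes in Pon2 and Pon3, and is not in capitals. The GENCODE gene models of Pon2 and Pon3 begin further upstream, inside these windows.

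Pon1, the HDL-bound member, was far lower in IL-33 lungs. It had 1.92, 1.34, 1.15, 1.34 and 3.26 CPM (reads scaled to the library's reads counted in genes, times 1e6) in IL-33 libraries 1 to 5, against 47.3, 35.5, 27.5, 37.5 and 40.9 CPM in control libraries 1 to 5. The highest IL-33 library, the fifth, was far below the lowest control library, the third, and the groups did not overlap. These levels rest on 9 to 43 reads in each IL-33 library, 101 in all, and on 2076 reads in the controls. The means were 1.80 ± 0.866 CPM in IL-33 lungs and 37.8 ± 7.25 CPM in control lungs (SD, n = 5 each), and the log2 fold change, IL-33 over control, fitted with edgeR was -4.31, or 19.8-fold lower. The difference of mean log2(CPM + 0.5), the scale of every SE given here, was -4.10 ± 0.25 (SE). In control lungs Pon1 stood, per exonic length, above 74.6% of the 15695 genes tested, and in IL-33 lungs above 8.69%.

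IL-33 library 5 held more Pon1 than the other IL-33 libraries, with an exact 95% Poisson interval of 2.36 to 4.39 CPM. That interval overlaps the one of library 1, 1.18 to 2.97 CPM, but not those of library 2, 0.690 to 2.33 CPM, library 3, 0.527 to 2.19 CPM, or library 4, 0.781 to 2.15 CPM. Intervals of this kind cover counting error only. Without IL-33 library 5 the log2 fold change of Pon1 was -4.67. The spread of Pon1 between IL-33 libraries, an SD of 48.0% of the mean, was above the 22.7% that counting alone would give, and in control libraries it was 19.2% against 4.97%.

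Pon2, the intracellular member, was slightly higher in IL-33 lungs. It had 165.2, 186, 184, 173 and 176 CPM in IL-33 libraries 1 to 5, against 136, 129.9, 149, 144 and 135 CPM in control libraries 1 to 5. All 5 IL-33 libraries lay above all 5 control libraries. The log2 fold change was 0.37 ± 0.05 (SE), a ratio of 1.29, from 9336 reads in IL-33 and 7431 in control libraries. Pon2 was the steadiest of the family, with an SD between libraries of 4.87% of the mean in IL-33 lungs and 5.57% in control lungs. In TPM, which scales reads per base of exon to a common total, it had 64.3 ± 3.15 TPM in IL-33 lungs and 61.5 ± 3.52 TPM in control lungs (SD, n = 5 each), less far apart. On that scale the groups overlapped, at 59.5 to 68.0 TPM in IL-33 lungs and 58.2 to 65.3 TPM in control lungs. With each library's trend on gene length and GC content removed, the log2 fold change of Pon2 was 0.61. TPM moved the median of all tested genes to -0.31 (log2, IL-33 over control), against -0.03 in CPM, so group differences of single genes and of marker sums are given in CPM here.

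Pon3, also a lactonase, was a little lower in IL-33 lungs, with overlap. It had 59.4, 60.5, 60.2, 66.2 and 74.7 CPM in IL-33 libraries 1 to 5, against 69.9, 78.6, 63.3, 84.8 and 90.3 CPM in control libraries 1 to 5. IL-33 libraries 4 and 5 lay within the range of the controls, and the log2 fold change was -0.25 ± 0.11 (SE), from 3455 reads in IL-33 and 4156 in control libraries.

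**Figure D1:**
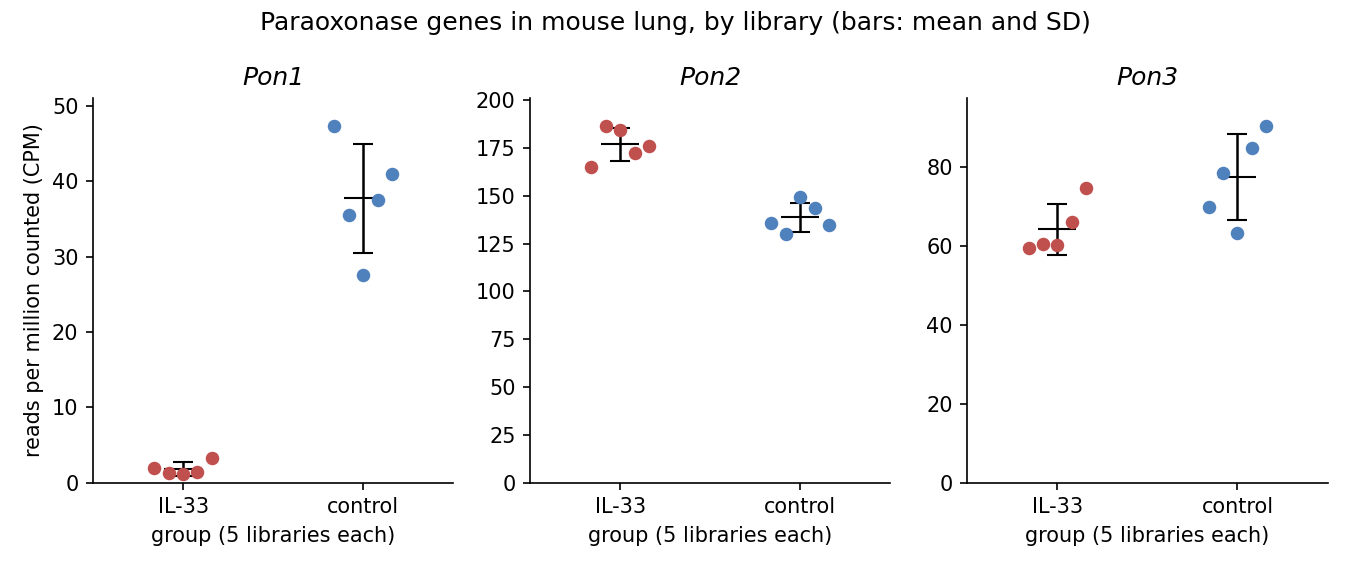
CPM of Pon1, Pon2 and Pon3 in each library (points), with the mean and SD of 5 IL-33 and 5 control libraries (bars), each gene on its own axis from 0. Pon1 is at 1.15 to 3.26 CPM in IL-33 lungs and 27.5 to 47.3 CPM in control lungs, Pon2 is higher in every IL-33 library, and Pon3 overlaps between the groups.

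All 3 members passed the low-count filter, and all 3 passed an adjusted p of 0.05 in the edgeR fit (quasi-likelihood test, Benjamini-Hochberg over all genes tested), 1 higher and 2 lower in IL-33 lungs. Of all 15695 genes tested, 69.9% passed, 35.1% as higher and 34.8% as lower. Groups without overlap, as for Pon1 and Pon2, occurred in 56.1% of tested genes. Since the family was picked with this contrast known, nothing is read from these counts. The call of Pon3 was lost without control library 4 or 5 (log2 fold change -0.22 and -0.20) and without IL-33 library 1, 2, 3 or 4 (-0.23, -0.23, -0.23 and -0.25).

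A second gene model bears on the level of Pon3. Gm44250 (ENSMUSG00000107881), a model of a type still to be experimentally tested, lies at chr6:5216258-5220486 on the same strand, 365 bases beyond the 3′ end of Pon3 in the GENCODE annotation, and was counted apart from it. The Pon3 gene of RefSeq runs from 5216256 to 5256285 and so covers Gm44250. Gm44250 held more reads than Pon3 itself, 5391 in IL-33 and 8028 in control libraries. It had 93.6, 87.3, 101, 107 and 112 CPM in IL-33 libraries 1 to 5, against 140.3, 145, 144, 152 and 168 CPM in control libraries 1 to 5. The groups did not overlap, and the log2 fold change was -0.56 ± 0.08 (SE). Each Pon3 read came with 1.44 to 1.69 Gm44250 reads in IL-33 libraries and with 1.79 to 2.28 in control libraries. Counted together, Pon3 and Gm44250 came to 165 ± 15.9 CPM in IL-33 lungs and 227 ± 20.7 CPM in control lungs (SD, n = 5 each). Those sums did not overlap, with 148 to 187 CPM against 207 to 258 CPM, a log2 difference of -0.46 ± 0.08 (SE). Whether the Gm44250 reads come from Pon3 transcripts was not tested. The gene model was looked at after its values were seen.

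Set against each other per length, the members were ordered differently in the groups. With all exons of a gene as its length, IL-33 lungs held 64.3 ± 3.15 TPM of Pon2, 50.8 ± 7.24 TPM of Pon3 and 1.68 ± 0.886 TPM of Pon1 (SD, n = 5), in that order in all 5 libraries. The ranges of Pon2, 59.5 to 68.0 TPM, and Pon3, 45.7 to 62.6 TPM, overlapped across the IL-33 libraries. Control lungs held 74.6 ± 11.9 TPM of Pon3, 61.5 ± 3.52 TPM of Pon2 and 42.4 ± 7.87 TPM of Pon1 (SD, n = 5). Pon3 was above Pon2 in 4 of 5 control libraries, but their ranges, 60.0 to 88.1 and 58.2 to 65.3 TPM, overlapped. Pon1 was below both others in each control library. The place of Pon2 depends on the length used, 7339 bases over all exons and 2834 bases for the longest transcript. With the longest transcript, Pon2 led in both groups, at 134 ± 6.69 TPM in IL-33 lungs and 128 ± 7.21 TPM in control lungs, while Pon3 had 68.6 ± 9.76 TPM in IL-33 lungs and 101 ± 15.9 TPM in control lungs.

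Within a library, shares of the family do not depend on library size. Pon1 made up 1.41% ± 0.610 of the summed paraoxonase TPM in IL-33 lungs (0.919% to 2.39%), against 23.7% ± 3.60 in control lungs (19.6% to 29.4%). Pon2 made up 55.2% ± 3.01 in IL-33 lungs and 34.7% ± 4.17 in control lungs, without overlap. Pon3 held 43.4% ± 2.52 in IL-33 lungs and 41.6% ± 3.48 in control lungs (SD, n = 5 each), with overlap. The sum over the 3 genes was 243 ± 10.4 CPM in IL-33 lungs and 254 ± 11.99 CPM in control lungs, with overlap. In TPM, on which the median gene also lay lower, it was 117 ± 10.2 TPM in IL-33 lungs and 179 ± 15.9 TPM in control lungs, without overlap.

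**Figure D2:**
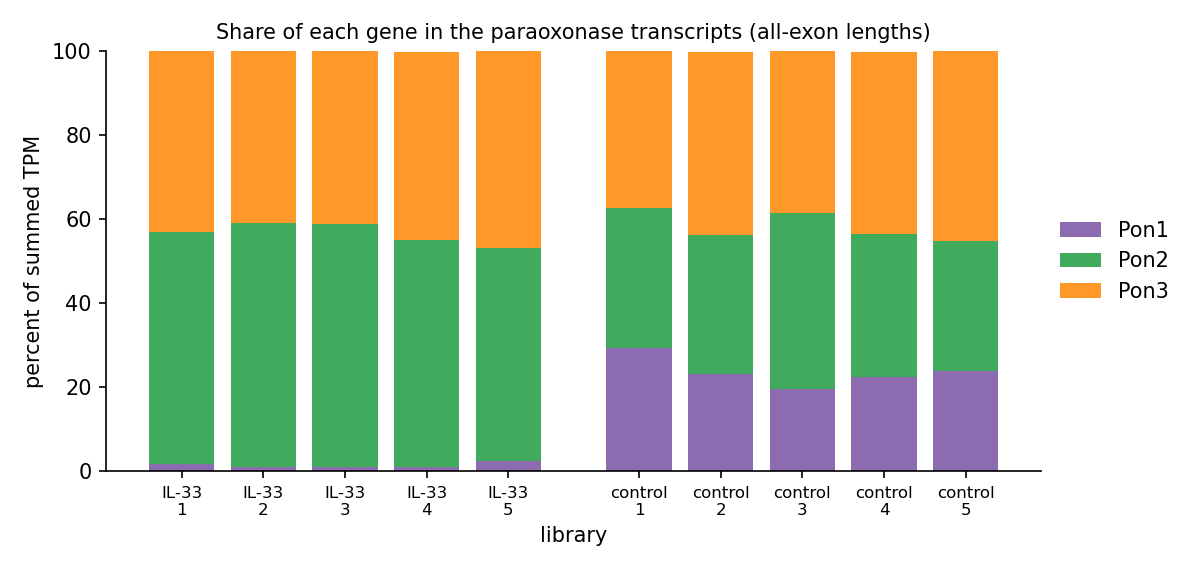
Percent of the summed TPM of the 3 paraoxonase genes held by Pon1, Pon2 and Pon3 in each IL-33 and control library, with all exons as the length. Pon1 is a thin strip of 0.919% to 2.39% in IL-33 libraries and 19.6% to 29.4% in control libraries.

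The genes around the cluster moved in both directions and less far than Pon1. Of the 5 nearest protein-coding genes on each side, 8 were tested. Of these, 2 were called higher and 5 lower in IL-33 lungs, against shares of 35.1% higher and 34.8% lower over all tested genes. Their median log2 fold change was -0.55, against -0.01 over all tested genes. Ppp1r9a, an actin-binding protein gene that ends 2.43 kb beyond the 3′ end of Pon1, fell to 42.4 ± 5.37 CPM in IL-33 lungs, against 94.5 ± 6.87 CPM in control lungs, a log2 fold change of -1.13 ± 0.09 (SE, edgeR adjusted p = 1.02e-07). Pdk4, a kinase that restrains pyruvate use, on the Pon2 side, had the lowest value of the neighbours, -1.55 ± 0.26 (edgeR adjusted p = 2.80e-05). Peg10 and Sgce, a pair of imprinted genes, had -0.94 and -0.73, and Casd1, a sialic acid acetyltransferase gene, -0.36. Higher were Col1a2, a fibrillar collagen chain, at 0.81, and Sem1, a proteasome subunit, at 1.03. Slc25a13, a mitochondrial carrier, did not pass at 0.22. Asb4, with 41 reads in IL-33 and 15 in control libraries, and Dync1i1, with 5 in IL-33 and 6 in control libraries, were too low to test.

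**Figure D3:**
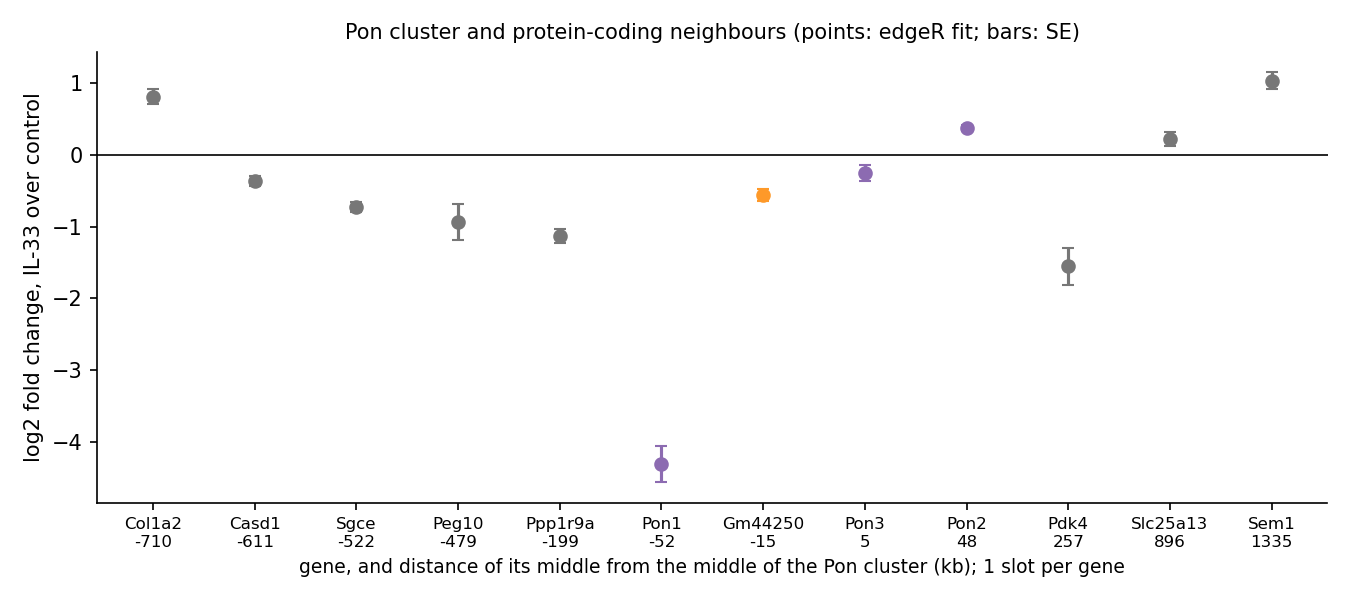
Log2 fold change, IL-33 over control, from the edgeR fit (points, with SE bars) for the 3 Pon genes (purple), Gm44250 (orange) and the tested protein-coding neighbours (grey), in order along the chromosome with the distance from the middle of the cluster in kb. The neighbours lie between -1.55 and 1.03 and Pon1 at -4.31.

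Genes of HDL, which carries Pon1 in blood, and of lipoprotein handling more widely were split. Besides HDL proteins the list holds Apob, the transporters Abca1 and Abcg1, the receptor Scarb1 and the lipases Lipc, Lipg and Lpl. Of 24 listed genes 15 could be tested, and 5 rose and 4 fell, 33.3% and 26.7% of those tested, near the shares of all genes, with a median of 0.23. Saa3, an acute-phase apolipoprotein, rose most, to 134 ± 42.7 CPM in IL-33 lungs, against 8.20 ± 1.94 CPM in control lungs (log2 4.07 ± 0.25, edgeR adjusted p = 2.13e-08). Lipc, hepatic lipase, stood at 2.40 ± 1.26 CPM in IL-33 lungs and 0.280 ± 0.0829 CPM in control lungs, and since it passed the low-count filter through the IL-33 libraries alone it had to differ and its count among the 5 supports nothing. Apoe, the most abundant of the list, rose to 667 ± 152 CPM in IL-33 lungs, against 384 ± 14.3 CPM in control lungs (log2 0.82 ± 0.14, edgeR adjusted p = 9.04e-05). Apoa1, the main structural protein of HDL, had 3 reads in IL-33 and 12 in control libraries and was not tested. Its control reads were uneven, at 0 to 0.895 CPM with a mean of 0.248 CPM. Members chosen after their values were seen include Pla2g7, which like Pon1 is an HDL-borne enzyme acting on oxidised lipids. It went the opposite way to Pon1, with 140 ± 21.7 CPM in IL-33 lungs and 26.3 ± 7.97 CPM in control lungs (log2 2.43 ± 0.21, edgeR adjusted p = 1.28e-07). Lipg, endothelial lipase, fell by 1.53 on the log2 scale. Mpo, a neutrophil peroxidase that binds HDL, had 62 reads in IL-33 and 4 in control libraries and did not pass the filter.

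Other enzymes that split esters, lactones or epoxides were mostly lower in IL-33 lungs. Of 31 listed genes 17 were tested. Of these, 11 fell, 64.7% against 34.8% of all genes, and 2 rose, with a median log2 fold change of -0.55. Ces2b, a carboxylesterase, had 0.520 ± 0.283 CPM in IL-33 lungs and 2.18 ± 0.511 CPM in control lungs. It passed the low-count filter through the control libraries alone and so had to differ. Its count among the 11, and in the 64.7%, supports nothing. Bche, butyrylcholinesterase, which binds organophosphates, fell to 3.797 ± 0.959 CPM in IL-33 lungs, against 15.0 ± 2.20 CPM in control lungs (log2 -1.94 ± 0.17). Ces1d, the most abundant, fell to 253 ± 63.8 CPM in IL-33 lungs, against 526 ± 60.3 CPM in control lungs (log2 -1.04 ± 0.18). The edgeR adjusted p-values were 3.81e-07 for Bche and 2.47e-05 for Ces1d. Members chosen after their values were seen include Ephx1, Esd, Lactb and Lactb2. Ephx1, microsomal epoxide hydrolase, fell by 1.13, while Esd, an esterase that handles a glutathione conjugate of formaldehyde, rose by 0.92. Lactb, which rose by 0.99, and Lactb2, called lower at -0.96, are beta-lactamase-like proteins and not known lactonases. They are counted among the 2 that rose and the 11 that fell. Ache, acetylcholinesterase, had 0.09 and was not called. Rgn, another lactonase, had 47 reads in IL-33 and 35 in control libraries and was not tested. The Ces genes are tandem copies, and how many reads they share was not measured.

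Enzymes that remove peroxides and superoxide, the oxidants from which Pon1 is thought to guard lipids, mostly rose. The list also holds the methionine sulfoxide reductases Msra, Msrb1, Msrb2 and Msrb3, which mend oxidised methionine and do not remove these oxidants. All 20 listed were tested. Of them, 14 rose and 3 fell, 70.0% and 15.0% against 35.1% and 34.8% of all genes, with a median of 0.50. Among the reductases, Msrb1 was called higher at 1.04 and Msrb3 lower at -0.69, while Msra and Msrb2 were not called. Prdx4, a peroxiredoxin of the secretory pathway, rose to 80.2 ± 6.42 CPM in IL-33 lungs, against 28.3 ± 2.99 CPM in control lungs (log2 1.52 ± 0.08, edgeR adjusted p = 1.62e-08). Cat, catalase, fell to 135 ± 28.5 CPM in IL-33 lungs, against 390 ± 22.0 CPM in control lungs (log2 -1.52 ± 0.14, edgeR adjusted p = 1.45e-07). Gpx3, the secreted glutathione peroxidase and the most abundant, stood at 1493 ± 112 CPM in IL-33 lungs and 1159 ± 120 CPM in control lungs (log2 0.39). Gpx3 and Prdx3 lost their calls and Msra gained one when each library's trend on gene length and GC content was removed, and 13 members were then higher and 5 lower.

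Transcription factors that have been reported to act on Pon genes, largely in liver cells or cell lines, mostly fell in the main fit. Of 18 listed 14 were tested, 10 fell, 71.4% against 34.8% of all genes, and 1 rose, with a median of -0.41. With the length and GC trend removed, 5 were lower, no longer most of the 14, and Ahr, Arnt, Ppard, Sp1 and Srebf2 were no longer called. That most fell thus depends on the processing. Ppara, a fatty acid sensor, fell to 1.30 ± 0.599 CPM in IL-33 lungs, against 3.86 ± 1.73 CPM in control lungs (log2 -1.51, edgeR adjusted p = 0.00291; log2(CPM + 0.5) difference -1.25 ± 0.38). Pparg, a related receptor of fat cells and macrophages, was the one that rose, to 19.0 ± 2.40 CPM in IL-33 lungs, against 10.3 ± 1.30 CPM in control lungs (log2 0.90 ± 0.12, edgeR adjusted p = 2.52e-05). Jun, the most abundant, had 263 ± 134 CPM in IL-33 lungs and 411 ± 127 CPM in control lungs and was not called. The liver factor Hnf4a, with 4 reads in IL-33 and 0 in control libraries, had too few to test.

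**Figure D4:**
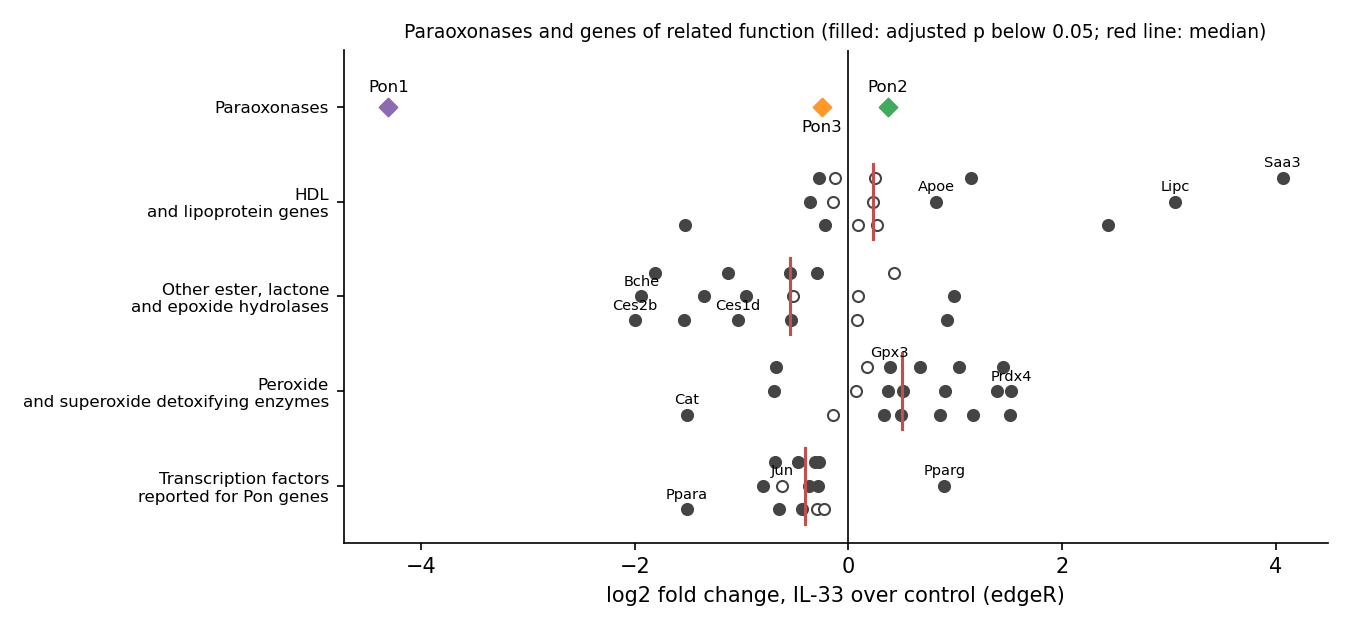
Log2 fold change, IL-33 over control, of each tested member of the 4 gene lists (points, filled where the edgeR adjusted p is below 0.05, with the list median as a red line) and of the 3 paraoxonase genes (diamonds, as a description). Medians are 0.23 for the HDL and lipoprotein list, -0.55 for other hydrolases, 0.50 for the peroxide enzyme list and -0.41 for transcription factors. Pon1 lies left of every listed gene.

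Pon1 was measured beside markers of lung cell types, of which several sets were lower and others were not. Of 8 alveolar type 1 markers all 8 fell, against 34.8% of all tested genes, and their summed level was 1879 to 2418 CPM in IL-33 lungs and 4530 to 4909 CPM in control lungs. Of 8 endothelial markers 6 fell, with sums of 2360 to 3588 CPM in IL-33 lungs and 6380 to 7320 CPM in control lungs. Of 8 club cell markers 5 fell and 3 rose, with sums of 12083 to 13570 CPM in IL-33 lungs and 19213 to 22157 CPM in control lungs. These 3 sums did not overlap between the groups. Of 10 alveolar type 2 markers 7 fell and 2 rose, with overlapping sums of 17557 to 21591 CPM in IL-33 lungs and 20600 to 23684 CPM in control lungs. Of 7 fibroblast markers 5 fell and 2 rose (3127 to 3843 CPM in IL-33 lungs and 3855 to 4093 CPM in control lungs). Of 4 mesothelial markers 2 fell and 1 rose (49.2 to 108 CPM in IL-33 lungs and 109 to 153 CPM in control lungs). Neither the fibroblast nor the mesothelial sum overlapped between the groups, though both ranges nearly met. Of 6 ciliated cell markers 2 fell and 1 rose, and of 6 alveolar macrophage markers 4 fell and 1 rose, and both sums overlapped, at 109 to 217 CPM in IL-33 lungs and 136 to 279 CPM in control lungs for ciliated cells and 402 to 491 CPM in IL-33 lungs and 348 to 425 CPM in control lungs for macrophages. The macrophage sum was mostly Car4 (256 CPM in IL-33 and 242 CPM in control lungs, not called) and Mrc1 (173 and 105 CPM, called higher). Fabp1, Marco, Krt79 and Siglecf were the 4 that fell, at -2.78, -1.14, -0.92 and -0.56. All 5 leukocyte markers rose, against 35.1% of all tested genes. Their sums, 2162 to 2600 CPM in IL-33 lungs and 636 to 1012 CPM in control lungs, did not overlap. The mean sums in IL-33 lungs, as a ratio to control in CPM, were 0.449 for endothelial, 0.473 for type 1 and 0.560 for mesothelial cells. They were 0.643 for club, 0.858 for ciliated, 0.890 for type 2 and 0.908 for fibroblast markers. For the alveolar macrophage list the ratio was 1.17 and for leukocyte markers 3.16. The 1.17 follows Car4 and Mrc1, while the 4 markers that fell weigh little in it, so it is not a level of alveolar macrophages. The ratio of Pon1 in CPM was 0.0478. Such sums follow their most abundant markers: in IL-33 lungs Scgb1a1 held a mean of 11946 of the 13084 CPM of the club sum. Single club markers ran from -3.03 (Scgb3a2) to 1.03 (Cldn10) in log2 fold change. Type 2 markers ran from -2.60 (Lyz1) to 0.61 (Cxcl15). The lowest type 1 marker was Col4a3 at -2.69, and Pon1 had -4.31. No marker on these lists was at 0 in all libraries. The part of cell composition in the Pon1 difference was not tested.

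Hepatocytes are the main source of Pon1 in the body. Of 8 hepatocyte markers only Cyp2e1, called lower, and Ahsg, called higher, were tested, and the list summed to 4.72 to 17.4 CPM in IL-33 lungs and 12.9 to 28.9 CPM in control lungs, with overlap. Alb, albumin, had 9 reads in IL-33 and 92 in control libraries, while Pon1 had 101 in IL-33 and 2076 in control libraries, and Ttr, transthyretin, had 3 in IL-33 and 10 in control libraries. Alb was uneven between control libraries, at 0.508 to 6.16 CPM with a mean of 1.94 ± 2.41 CPM (SD, n = 5). Its control total leans on the highest library, so no group difference is read from it. Cyp2e1, which lung also expresses, had 396 reads in IL-33 and 834 in control libraries, and Ahsg 130 in IL-33 and 36 in control libraries.

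The genes whose pattern over the 10 libraries was most like that of a member were found by the root mean square difference of log2 values after subtracting each gene's control mean, among 13670 candidates. This search uses the same contrast and is a description. Among those closest to Pon1 were Wnt10b, a Wnt ligand, at 0.57 log2 units, Esm1, an endothelial proteoglycan, at 0.78, Gria1, a glutamate receptor subunit, at 0.88, and Ston1 at 0.92. Wnt10b had 2.69 ± 0.836 CPM in IL-33 lungs and 32.6 ± 3.45 CPM in control lungs. None of these 4 fell as far as Pon1, their log2 fold changes being -2.79 to -3.56. Closest to Pon2 were P4hb, a protein disulfide isomerase, at 0.041 log2 units, Lman2, a cargo lectin of the secretory pathway, at 0.042, and Gltp, a glycolipid transfer protein, at 0.050. Closest to Pon3 were Uck1, a uridine and cytidine kinase, at 0.060, Edc3, an mRNA decapping cofactor, at 0.062, and Tbc1d1 at 0.068.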

How the data were processed

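Per the labels' protocols, RNA of mouse lung was polyA-selected and made into libraries with a strand-keeping kit. The submitters' processing notes name STAR 2.5.4b, HTSeq 0.9.1 and GRCm38; which annotation release and strand setting were used for counting is not stated there or in the labels. The deposited files hold raw counts of reads per Ensembl gene, 7805175 to 13767118 per library. Rows without a gene were dropped: 10.4% to 13.7% of records in no feature, 0.862% to 0.945% ambiguous and 15.0% to 22.8% not unique. Of 53465 identifiers 53360 matched GENCODE M21 (GRCm38), which gave names, positions and exonic lengths. Promoter sequences are RefSeq's (GRCm38.p6); all 3 members matched.

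Groups follow the titles. A single model of group, with no other term, was fitted to the 10 libraries in edgeR 4.0.16 under R 4.3.3 (TMM, filterByExpr, quasi-likelihood). P-values were adjusted by Benjamini-Hochberg over 15695 genes, with a threshold of 0.05. The SE is of the difference in log2(CPM + 0.5). CPM divides by reads counted in genes. TPM divides by the union of exons. Alternatives were DESeq2 1.42.0, limma-voom (limma 3.58.1), DESeq2 size factors, library size alone, other filters, a replicate block, offsets from splines (4 degrees of freedom) on length and GC, leaving out each library, another length and RPKM. No pair of libraries in a group agreed within sampling noise. The labels do not tie each library to an animal, so p-values measure the spread between these samples, which may be in part technical. The fit was also run on simulated data in which 200 genes were changed. Far more genes were called in the real data, so that run does not check the fit under such broad change.

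The members and lists were chosen with earlier results of these data known. Named genes are the members, of each list the 2 called genes of largest change at a mean of 1 CPM or more and the most abundant, the 5 nearest protein-coding genes on each side, and the 5 (Pon1) or 3 (Pon2, Pon3) genes of most like pattern at 1 CPM or more in controls, without numbered gene models, Riken clones and pseudogenes. Others were chosen after their values were seen. Some items that these rules name are not reported here.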

Additional observations from a re-analysis of the deposited data

Results flagged for a closer look

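Over 36 named genes and both groups there were 72 sets of 5 values. Of these sets, 3 held a library far from the other 4, no more than the roughly 1 in 20 that chance gives. None of the 3 paraoxonase genes was among them. Lipc had 4.56 CPM in IL-33 library 2, against 1.498 to 2.28 CPM in the other IL-33 libraries. Ston1, among the genes most like Pon1, had 18.5 CPM in IL-33 library 5, against 5.23 to 8.83 CPM in the others. Uck1, among the genes most like Pon3, had 25.3 CPM in IL-33 library 5, against 19.7 to 21.1 CPM in the others. IL-33 library 5 held the highest Pon1 and Pon3 of its group. Ston1 and Uck1 were picked for likeness to Pon1 and Pon3 over these same libraries. Their high values in library 5 are therefore not a separate observation.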

How the results depend on the processing

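Of the values recomputed under alternative settings, 279 kept their direction or stayed near their size, and 15 moved; no fold change of a paraoxonase gene changed sign. A count that stayed near its size could hold other genes. With the trend on length and GC content removed, Abcg1 and Scarb1 were no longer called lower among HDL and lipoprotein genes. Apoc1, at 0.23 before, was then called lower. With that trend removed, the log2 fold change of Pon2 was 0.61. On the peroxide enzyme list 5 members were then lower (Gpx8 and Msrb2 added), and 5 transcription factors were lower. With no low-count filter, 8 HDL and lipoprotein genes were higher (Mpo, Saa1 and Saa2 added). With the longest transcript as length, levels were 134 TPM for Pon2 and 68.6 TPM for Pon3 in IL-33 lungs, and 63.8 TPM for Pon1, 128 TPM for Pon2 and 100.6 TPM for Pon3 in control lungs. In RPKM they were 0.622 for Pon1, 24.1 for Pon2 and 19.0 for Pon3 in IL-33 lungs, and 13.0 for Pon1, 18.9 for Pon2 and 22.9 for Pon3 in control lungs. Leaving out 1 library at a time gave log2 fold changes of -4.67 to -4.18 for Pon1, 0.33 to 0.39 for Pon2 and -0.32 to -0.20 for Pon3, and 10517 to 11089 genes called. Same-numbered libraries correlated at -0.08 to 0.22 in their deviations from the group means and not every library correlated best with its own number, so the numbers were not taken as pairs; with a replicate block 11122 genes were called, against 10975 without, and Clu and Jun were added to the called list members. Depth limits Pon1 in IL-33 libraries, at 9 to 43 reads, and leaves the listed genes under the filter untested.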
